A study of Danio rerio with 20 samples.

Results

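The 2 regions described here are short clusters of CpG positions that received almost no reads in a bisulfite amplicon experiment on zebrafish gonads. The first spans positions 35126017 to 35126415 of chromosome 7 (399 bp, 14 positions) and the second spans 54465006 to 54465356 of chromosome 16 (351 bp, 21 positions), both on GRCz11. They were chosen by these coordinates because of their low read numbers, with no minimum of reads, and they make up 35 of the 456 positions in the tables. Depth was thus what the choice rested on and is described without a test, while methylation was compared over samples. No source used here names a gene for these positions, and no annotation of this genome build was used, so neither cluster is assigned to a gene, exon or promoter.

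The study's title places it in sex differentiation under inflammation caused by lipopolysaccharide (LPS), the glycolipid that coats Gram-negative bacteria and sets off innate immune responses. The gonads came from AB zebrafish reared in the laboratory and were sampled when the fish were 90 days old, in 4 groups of 5 samples. The groups were 3H LPS, whose larvae had received LPS of Pseudomonas aeruginosa, the 3H control, the 6H LPS and the 6H control group. The labels do not explain 3H and 6H, and they state neither the fish's sex nor whether each sample was a separate fish. The p-values measure only the spread between these samples, which may be technical. A bulk gonad sample mixes germ cells and somatic cells, and a different mix of cells cannot be told apart from a different methylation level within cells.

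In vertebrate genomes most CpGs are methylated on the cytosine, and stretches that stay unmethylated often mark promoters. DNA methyltransferases copy the mark to the new strand after replication, so a pattern can persist through cell divisions. Bisulfite converts unmethylated cytosine so that it reads as thymine while methylated cytosine still reads as cytosine. Each read is therefore taken to report the state of 1 copy of the DNA at each CpG it covers. Whether the DNA of these fish held a cytosine at each position was not checked.

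The deposited tables give methylated and unmethylated reads for each position. A call is 1 read at 1 position, and the level of a cluster in a sample is the share of its calls that were methylated. Over the 20 samples the chromosome 7 cluster held 2023 calls and the chromosome 16 cluster 731, together 0.0124% of the 22145973 calls of the series. The libraries held between 419055 and 2046055 calls each. The chromosome 7 cluster was read in 20 samples, with between 45 and 200 calls per sample and between 5 and 22 reads at the position read most often. The chromosome 16 cluster was read in 18 samples, with between 19 and 96 calls and at most 5 reads per position. No call of it was listed for 3H LPS replicate 1 and 6H LPS replicate 4. Of the 8 other tested clusters that were read in all 20 samples, the one with the lowest depth began at position 44944720 of chromosome 5, where the most-read position had a median of 303.5 reads per sample, against 11.5 on chromosome 7. A cluster of 7 positions from 18047116 to 18047338 of chromosome 3 was as thinly read as the chromosome 16 cluster, with a median of 2 reads at its most-read position in both. It was read in 16 samples and had not been chosen. The series held 30 clusters with at least 3 positions, of which 11 were tested. The rest had too few samples with a call in at least 1 group.

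Both clusters were mostly methylated. The chromosome 7 cluster averaged 81.0% ± 9.46 (SD, n = 20), from 64.8% to 92.9%. The chromosome 16 cluster averaged 62.7% ± 21.6 (SD, n = 18), from 21.1% to 94.8%. By pooled calls the levels were 81.5% and 62.4%.

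If every call were independent, counting alone would give an SD of 4.19 percentage points between samples on chromosome 7, and if the calls of a read moved as 1 unit it would give 12.6. The SD within groups was 10.2 percentage points, between these values. On chromosome 16 the SD within groups was 23.4 percentage points, against 8.63 and 37.8 from counting. Of the 9 other clusters that could be tested, 4 had an SD within groups above the larger of their 2 counting values. Among them was the cluster from position 44956550 of chromosome 10, at 3.97 percentage points against 0.723. Both counting values rest on an assumption about calls on the same read, which the tables do not record. Intervals given for single samples are exact 95% binomial intervals (Clopper-Pearson) on the calls. They cover counting error only and treat calls on the same read as independent, which makes them too narrow.

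On chromosome 7 the 3H LPS samples, replicates 1 to 5, were at 78.2%, 84.4%, 86.7%, 92.9% and 66.4%. The 3H controls were at 90.7%, 92.8%, 74.6%, 91.3% and 64.8%. In both groups 1 sample, replicate 5, lay below 70% and the groups overlapped over almost their whole range. The interval for 3H LPS replicate 5 reached from 56.6% to 75.2% (107 calls), and that for 3H control replicate 5 from 50.6% to 77.3% (54 calls).

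The 6H LPS samples, replicates 1 to 5, were at 72.0%, 68.6%, 79.0%, 88.9% and 84.4%. The 6H controls were at 72.1%, 70.4%, 82.4%, 90.0% and 89.0%. The 2 groups again covered the same range, and in both of them replicates 1 and 2 were the lowest samples.

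On chromosome 16 the 3H LPS samples, replicates 2 to 5, were at 63.5%, 27.8%, 89.5% and 94.7%. The 3H controls, replicates 1 to 5, were at 21.1%, 73.7%, 55.0%, 94.8% and 57.9%. Each of these groups held a sample below 30% and a sample above 90%. The widest interval of the 3H LPS group was that of replicate 4, from 66.9% to 98.7% (19 calls), and that of the 3H controls was that of replicate 5, from 33.5% to 79.7% (19 calls).

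The 6H LPS samples, replicates 1, 2, 3 and 5, were at 59.0%, 35.9%, 74.4% and 69.0%. The 6H controls, replicates 1 to 5, were at 89.5%, 52.6%, 60%, 63.8% and 47.4%. Here too the groups overlapped, and 1 sample with 1 read at each of its positions, 6H control replicate 1, was the highest.

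**Figure D1:**
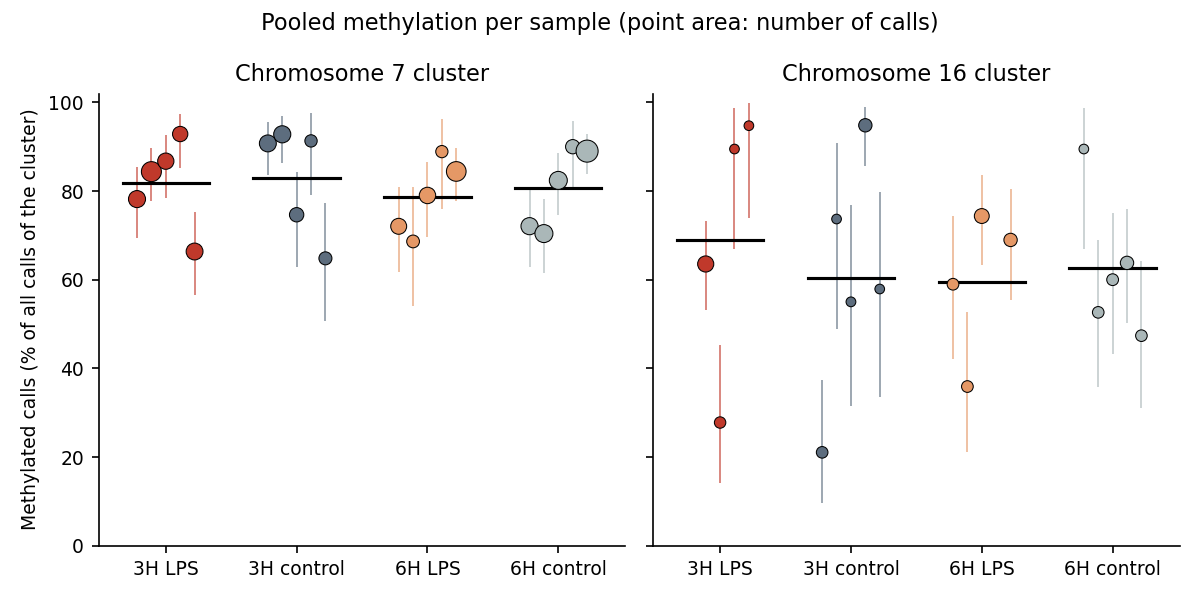
Share of methylated calls (%) of the chromosome 7 cluster (left) and the chromosome 16 cluster (right) in each sample, by group; points stand in replicate order with an area that grows with the number of calls, thin bars are exact 95% binomial intervals and black lines are group means. The 4 groups overlap in both panels, and the chromosome 16 samples reach from 21.1% to 94.8%.

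LPS and control samples of the 3H set did not differ beyond the spread between samples in either cluster. The chromosome 7 cluster averaged 81.7% ± 10.1 (SD, n = 5) in 3H LPS samples and 82.9% ± 12.5 (SD, n = 5) in 3H controls. The difference was -1.16 percentage points, with an interval by exact permutation from -18.8 to 18.2 (two-sided exact permutation p = 0.865, adjusted p = 0.865 over 11 clusters). The chromosome 16 cluster averaged 68.9% ± 30.6 (SD, n = 4) in 3H LPS samples and 60.5% ± 27.1 (SD, n = 5) in 3H controls. That difference was 8.39 percentage points, with an interval from -40.0 to 54.1 (exact permutation p = 0.659, adjusted p = 0.834). Neither cluster was called, where 18.2% of the 11 clusters were. On chromosome 16 the direction depended on how reads were weighted. With reads pooled over the group, 3H LPS samples were at 62.4% of 170 calls and 3H controls at 64.3% of 154 calls, the opposite order to the means of samples. Of these calls, 3H LPS replicate 2 gave 96 of the 170 and 3H control replicate 4 gave 58 of the 154.

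In the 6H set the chromosome 7 cluster averaged 78.6% ± 8.40 (SD, n = 5) in LPS samples and 80.8% ± 9.20 (SD, n = 5) in controls. The difference was -2.18 percentage points, with an interval from -15.9 to 12.3 (exact permutation p = 0.690, adjusted p = 0.937). The chromosome 16 cluster averaged 59.5% ± 17.0 (SD, n = 4) in LPS samples and 62.7% ± 16.3 (SD, n = 5) in controls. The difference was -3.10 percentage points, with an interval from -30.5 to 21.6 (exact permutation p = 0.794, adjusted p = 0.937). Neither was called, and 0% of the 11 clusters were, under the same limit of the test. Pooled reads again gave the other order on chromosome 16, at 63.1% of 214 calls in 6H LPS samples and 60.1% of 193 calls in 6H controls.

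Over both sets, with treatment permuted within each set, LPS samples minus controls came to -1.67 percentage points on chromosome 7, with an interval from -11.0 to 7.69 (exact permutation p = 0.704, adjusted p = 0.961). On chromosome 16 the difference was 2.64 percentage points, with an interval from -20.7 to 25.8 (exact permutation p = 0.809, adjusted p = 0.961). Of the 11 clusters 0% were called. Both intervals include 0 and hold the shifts that the exact test did not reject with these samples and this depth.

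The sets were also compared within each treatment. In controls the 6H minus 3H difference was -2.09 percentage points on chromosome 7 (interval -20.3 to 16.0, exact permutation p = 0.738, adjusted p = 1) and 2.16 on chromosome 16 (interval -30.6 to 36.7, exact permutation p = 0.897, adjusted p = 1). Neither cluster was among the 18.2% of clusters called in this comparison. In LPS samples the 6H minus 3H difference was -3.11 percentage points on chromosome 7 (interval -16.0 to 11.3, exact permutation p = 0.611, adjusted p = 0.747). On chromosome 16 it was -9.33 (interval -58.8 to 46.6, exact permutation p = 0.600, adjusted p = 0.747), and 0% of clusters were called. The LPS effect of the 6H set less that of the 3H set was -1.02 on chromosome 7 (permutation p = 0.908, adjusted p = 0.992) and -11.5 on chromosome 16 (permutation p = 0.601, adjusted p = 0.965), in percentage points, with 18.2% of clusters called. These comparisons share samples with those above and are not independent of them.

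Along the chromosome 7 cluster, 9 of the 14 positions were read in all 20 samples. They had between 199 and 223 reads over all samples and lay between 77.4% and 89.4%. The highest was position 35126071 and the lowest was 35126247, which lay 173 bp after the position before it, the widest gap of the cluster. The first 4 positions, the last of them 57 bp from the first, were at 87.8% of 875 calls and the last 4, from 35126295 to 35126385, at 84.0% of 845 calls. By sample, the first 4 averaged 87.2% ± 11.8 (SD, n = 20) and the last 4 averaged 83.7% ± 10.3 (SD, n = 20), with the first 4 higher in 14 samples and lower in 6.

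Of the first 4 positions, 3 had the widest gaps between the 3H groups. At 35126017 pooled reads were methylated in 83.1% of 59 in 3H LPS samples, 95.3% of 43 in 3H controls, 83.7% of 49 in 6H LPS samples and 88.2% of 68 in 6H controls. At 35126071 the shares were 84.5% of 58 in 3H LPS samples, 95.2% of 42 in 3H controls, 87.8% of 49 in 6H LPS samples and 91.2% of 68 in 6H controls. At 35126074, 3 bp on, they were 85.2% of 61 in 3H LPS samples, 95.3% of 43 in 3H controls, 86.0% of 50 in 6H LPS samples and 89.9% of 69 in 6H controls. At these 3 positions LPS samples were lower in both sets, and so they were at position 35126045, which lies between them. It was at 83.3% of 60 in 3H LPS samples, 88.1% of 42 in 3H controls, 85.1% of 47 in 6H LPS samples and 86.6% of 67 in 6H controls. Over the first 4 positions, 84.0% of 238 calls were methylated in 3H LPS samples and 93.5% of 170 in 3H controls, and 85.6% of 195 in 6H LPS samples and 89.0% of 272 in 6H controls. Single samples carried much of these gaps. Without 3H LPS replicate 5, which had 27 of 47 calls methylated, the other 3H LPS samples were at 90.6% and the gap was -2.95 percentage points, against -9.50 with it. Without 6H LPS replicate 2, at 15 of 24 calls, the other 6H LPS samples were at 88.9% and the gap was -0.0817, against -3.33 with it. Without 6H control replicate 5 that gap was 0.157.

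Of the other 5 positions read in every sample, 35126295 had LPS samples lower in both sets by pooled reads and the other 4 did not. Position 35126247 was at 80.7% of 57 reads in 3H LPS samples, 75.0% of 40 in 3H controls, 68.9% of 45 in 6H LPS samples and 81.8% of 66 in 6H controls. Position 35126295 was at 80.3% of 61 in 3H LPS samples, 81.0% of 42 in 3H controls, 78.7% of 47 in 6H LPS samples and 82.4% of 68 in 6H controls. The first of these had opposite orders in the 2 sets, and at the second the gap was small in the 3H set. Position 35126332 was at 89.7% of 58 in 3H LPS samples, 87.5% of 40 in 3H controls, 77.8% of 45 in 6H LPS samples and 83.1% of 65 in 6H controls. Position 35126375 was at 90.2% of 61 in 3H LPS samples, 88.1% of 42 in 3H controls, 83.7% of 49 in 6H LPS samples and 79.4% of 68 in 6H controls. Position 35126385 was at 87.9% of 58 in 3H LPS samples, 86.8% of 38 in 3H controls, 90.5% of 42 in 6H LPS samples and 80.3% of 61 in 6H controls. LPS samples were higher at both of the last 2 positions in both sets. Of the 9 positions, LPS samples were higher by pooled reads at 4 and lower at 5 in the 3H set, and higher at 2 and lower at 7 in the 6H set.

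**Figure D2:**
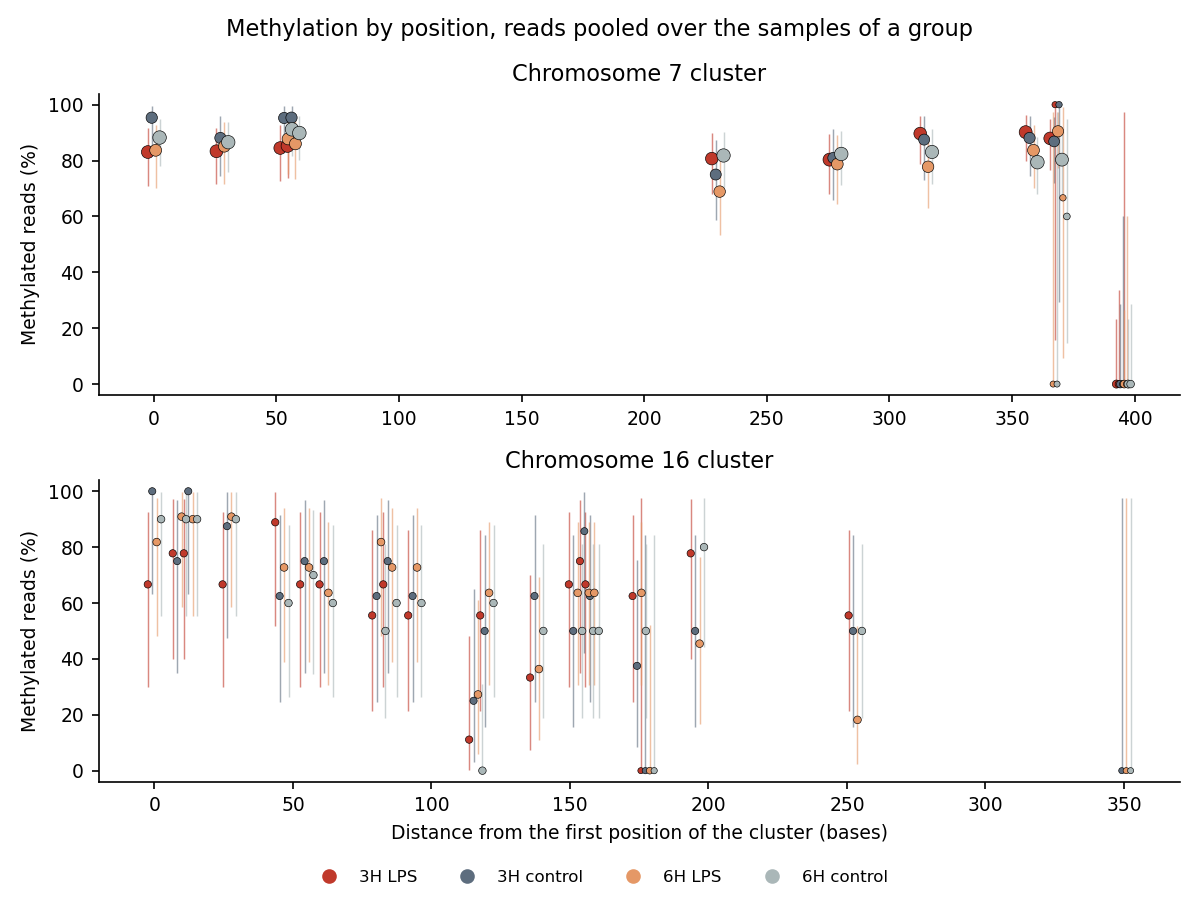
Share of methylated reads (%), pooled over the samples of a group, at each position of the chromosome 7 cluster (top) and the chromosome 16 cluster (bottom), against the distance in bases from the first position; points grow with the number of reads and bars are exact 95% binomial intervals. The bars treat pooled reads as independent and leave out any spread between samples. The 9 chromosome 7 positions read in every sample lie between 68.9% and 95.3% in the 4 groups, while the last 3 positions are at 0%. On chromosome 16 the first 4 positions lie above the last 4 as a stretch in each group.

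Single positions were tested in 1 edgeR fit of 159 CpGs of the series, each with at least 10 reads summed over every group. Of the chromosome 7 positions 10 entered it, and none of the chromosome 16 positions did, since no position of that cluster had more than 9 reads in 3H LPS samples. In the 3H set the smallest p was at 35126071, with a log2 odds difference of -1.52 (edgeR adjusted p = 0.809). In the 6H set it was at 35126247, at -0.98 (edgeR adjusted p = 1), and over both sets at 35126074, at -0.99 (edgeR adjusted p = 1). The median log2 odds difference of the 10 positions was -0.19 in the 3H set, -0.48 in the 6H set and -0.25 over both sets. For the 159 CpGs it was -0.22, 0.09 and -0.06. Of the 10, position 35126412 had 0 methylated reads in every group, so its differences carry no information and it could not be called. Ranked without it, the middle difference was 0.07 in the 3H set (35126295), -0.47 in the 6H set (35126332) and -0.20 over both sets (35126247). At 35126295 the fit and the pooled reads had opposite signs in the 3H set, where pooled reads were at 80.3% in LPS samples and 81.0% in controls. None of the 10 positions passed an adjusted p of 0.05 in any of the 6 comparisons, and with limma none did either. The share of the 159 CpGs called by edgeR was 0% for LPS against control in the 3H set, 0.629% in the 6H set and 0.629% over both sets. It was 0% for 6H against 3H in controls, 0% in LPS samples and 0.629% for the difference between the LPS effects. At an unadjusted p under 0.05 edgeR again had 0 of the 10 positions in each comparison, and so did limma. Among the 159 CpGs that share was 8.81%, 6.29%, 3.77%, 7.55%, 8.18% and 9.43% in the same order. Between sets the smallest p was at 35126375 in controls, with a log2 odds difference of -0.80 (edgeR adjusted p = 0.908), and at 35126332 in LPS samples, at -1.24 (edgeR adjusted p = 1). For the difference between the LPS effects it was at 35126247, at -1.57 (edgeR adjusted p = 0.903).

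The other 5 positions of the chromosome 7 cluster, from 35126383 to 35126415, were read in some samples only. Position 35126383 lay between 35126375 and 35126385, which had 220 and 199 reads in all 20 samples. Position 35126387 lay 2 bp after 35126385. Why so few calls were given at these positions was not tested. Positions 35126412 and 35126413 had 0 methylated of 51 reads in 19 samples and 0 of 28 reads in 13 samples. Their exact 95% intervals reached up to 6.98% and 12.3%, with reads pooled over samples treated as independent. The 51 reads at 35126412 were 14 in 3H LPS samples, 11 in 3H controls, 12 in 6H LPS samples and 14 in 6H controls. These 2 positions are 1 bp apart, so they cannot both be the cytosine of a CpG on the same strand. The first of them stood 25 bp beyond position 35126387. That position had 10 methylated of 13 reads in 10 samples, and 35126383 and 35126415 had 0 methylated of 2 reads and of 1 read. Over these 5 positions 10 of 95 calls were methylated. Over the 9 positions read in all samples, 85.0% of 1928 calls were methylated, against 81.5% for the whole cluster.

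On chromosome 16 nearly all positions had equally few reads. Of its 21 positions 19 were read in all 18 samples, with between 36 and 38 reads in total each. In 6 samples no position had more than 1 read, in 7 samples the most-read position had 2 reads, in 3 samples 3, in 1 sample 4 and in 1 sample 5. The tables do not record which calls lay on the same read. With 1 read at each position, however, the calls of a sample can come from as few as 1 copy of the DNA.

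In these 6 samples the pattern of the 19 positions could be read directly. It had 17 methylated positions in 3H LPS replicate 4 and 18 in 3H LPS replicate 5, against 14, 11 and 11 in 3H control replicates 2, 3 and 5, and 17 in 6H control replicate 1. No such sample was methylated or unmethylated at all positions. Among the samples with more reads, 3H control replicate 4 had 3 reads at each position, and 17 of the 19 positions were methylated in all of them. In 6H control replicate 2, with 2 reads at each position, 16 of the 19 positions had 1 methylated and 1 unmethylated read. In 3H control replicate 1, with 2 reads at nearly all positions, 13 of the 19 were unmethylated in all reads.

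**Figure D3:**
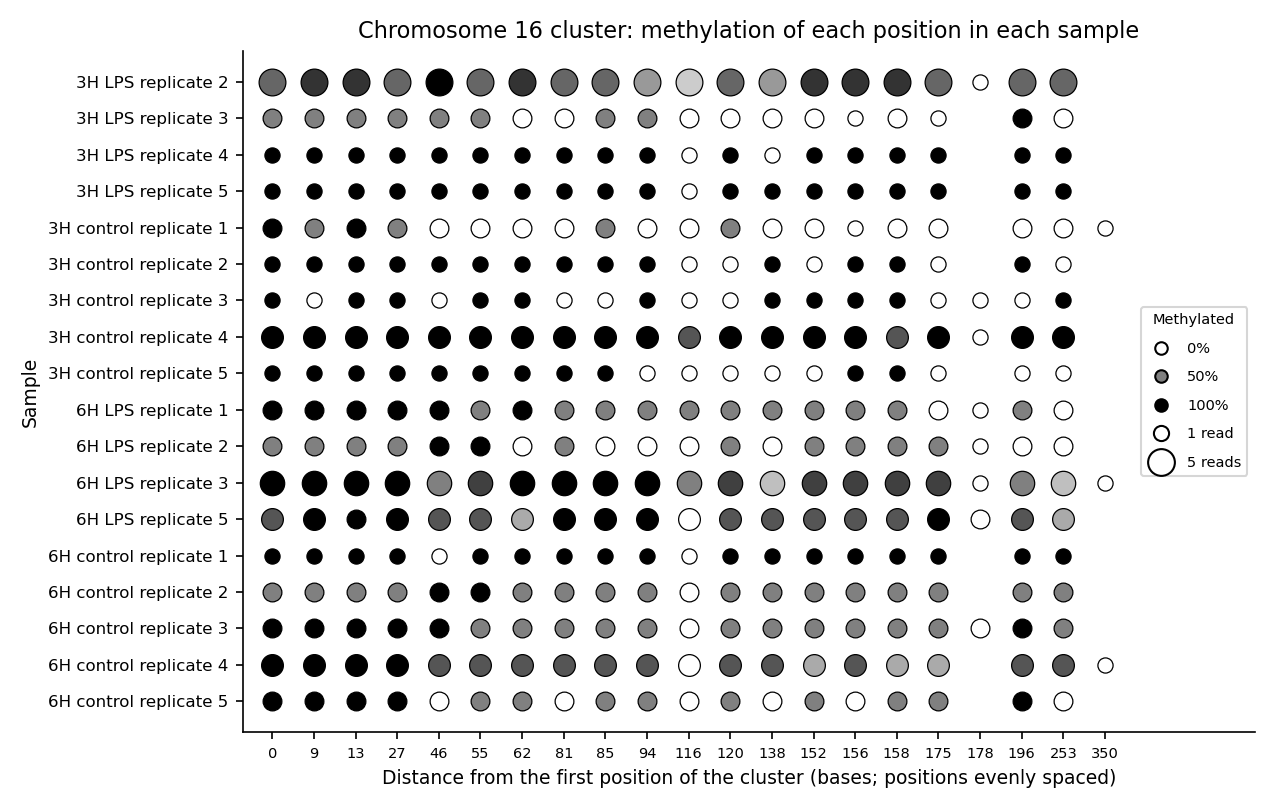
Each circle is 1 position of the chromosome 16 cluster (columns, labelled by the distance in bases from the first position and evenly spaced) in 1 of the 18 samples (rows); the fill runs from white (0% methylated) to black (100%) and the size grows with the number of reads. The column at 116 bases is the palest of the 19 complete columns, at 0% in 14 of 18 samples, and the columns from 0 to 27 bases are the darkest.

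Methylation on chromosome 16 was uneven along the cluster. The first 4 positions, 54465006 to 54465033, were at 85.4% of 151 calls, the next 11 at 58.7% of 416 calls and the last 4, 54465164 to 54465259, at 55.0% of 151 calls. By sample the first 4 averaged 86.7% ± 19.6 (SD, n = 18) and the last 4 averaged 55.3% ± 29.0 (SD, n = 18). The first 4 were the higher stretch in 14 samples and tied with the last 4 in 4, and were the lower stretch in 0. By group the first 4 positions were at 72.2% of 36 calls in 3H LPS samples, 90.6% of 32 in 3H controls, 88.4% of 43 in 6H LPS samples and 90.0% of 40 in 6H controls. The last 4 positions were at 65.7% of 35 calls in 3H LPS samples, 50% of 32 in 3H controls, 47.7% of 44 in 6H LPS samples and 57.5% of 40 in 6H controls. The first 4 positions were thus above the last 4 in pooled reads of all 4 groups, with the smallest gap in 3H LPS samples, and whether the groups differ in this was not tested. Among 3H LPS samples, replicate 2 alone gave 20 of the 36 calls of the first 4 and 20 of the 35 of the last 4. Levels did not fall throughout. The middle 11 positions were at 58.2% in 3H LPS samples, 62.1% in 3H controls, 62.8% in 6H LPS samples and 51.8% in 6H controls, below the last 4 in 3H LPS samples and 6H controls. These 11 include the lowest position, 54465122, methylated in 1 of 9 reads in 3H LPS samples and 0 of 10 in 6H controls. It lowers the level of the stretch in all 4 groups.

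Position 54465122 stood apart from its neighbours. It was methylated in 6 of 38 reads, or 15.8% with an exact 95% interval from 6.02% to 31.3%. Position 54465100, 22 bp before it, was at 63.2% and position 54465126, 4 bp after it, at 57.9%, with intervals from 46.0% to 78.2% and from 40.8% to 73.7%. These intervals treat the pooled reads as independent and leave out any spread between samples. In 18 of 18 samples position 54465122 was below the mean of the other 18 positions, and in 14 of 18 it was at 0%. By group it was methylated in 1 of 9 reads in 3H LPS samples, 2 of 8 in 3H controls, 3 of 11 in 6H LPS samples and 0 of 10 in 6H controls. The position was singled out after its values were seen, so no test is given. Among the 19 positions read in all 18 samples, those with the next lowest levels were 54465259 at 42.1% and 54465144 at 44.7%.

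Group differences at chromosome 16 positions rested on 7 to 11 reads per group. In 3H LPS samples the 19 positions had 8 or 9 reads each, of which replicate 2 alone gave 5. A pair of them, chosen after the values were seen, illustrates this. At 54465259, 2 of 11 reads were methylated in 6H LPS samples and 5 of 10 in 6H controls, and 5 of 9 in 3H LPS samples and 4 of 8 in 3H controls. At 54465087, 9 of 11 were methylated in 6H LPS samples and 5 of 10 in 6H controls, and 5 of 9 in 3H LPS samples and 5 of 8 in 3H controls. Neither position had the same order in both sets. Over the 19 positions, LPS samples were higher at 8 and lower at 11 in the 3H set, and higher at 14, lower at 4 and tied at 1 in the 6H set. Positions of a sample share their reads, so these counts are not independent. The 2 remaining positions had 0 methylated reads. Position 54465184, 3 bp after one at 54.1%, had 0 of 10 reads in 8 samples, and 54465356 had 0 of 3. The 10 reads allow a level of up to 30% among reads with a call at 54465184. The positions on either side, 54465181 and 54465202, had 37 and 38 reads in 18 samples. Why so few calls were given at 54465184 was not tested, nor whether its calls stand for an unmethylated cytosine.

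The sample titles carry a number from L1 to L5, whose meaning the labels do not give. On chromosome 7, LPS and control samples with the same number had similar levels in the 6H set, where LPS minus control ran from -4.58 to -0.0291 percentage points. In the 3H set the same differences ran from -12.6 to 12.1. Over the 10 pairs of both sets the levels correlated with Pearson r = 0.779 (permutation p = 0.0111, adjusted p = 0.0613 over 11 clusters) and Spearman rho = 0.673 (permutation p = 0.0399, adjusted p = 0.200). Without the 2 pairs farthest from the median LPS level, r was 0.515. The relation did not pass the correction over clusters and was looked for after the values were seen. With 5 pairs in each set it was not tested within sets. Over the 11 clusters r had either sign. The cluster whose r passed the correction, from 24973659 of chromosome 23, had r = -0.860 (permutation p = 0.00101, adjusted p = 0.0111). Levels were not centred by group, so differences between group means enter each r. That cluster had an SD of 0.0886 percentage points over all samples and 0.0520 within groups. Whether same-numbered samples were related beyond such differences was not tested. On chromosome 16, r was 0.338 over 8 pairs (exact permutation p = 0.405, adjusted p = 0.557) and rho 0.310 (exact permutation p = 0.462, adjusted p = 0.837), and r was -0.0676 without the 2 farthest pairs.

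**Figure D4:**
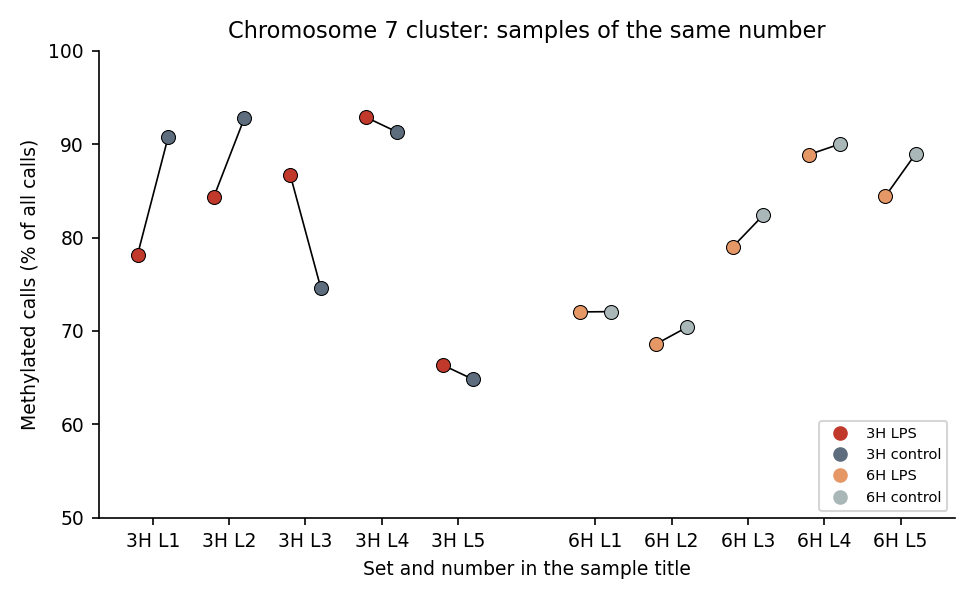
Share of methylated calls (%) of the chromosome 7 cluster in LPS (left point) and control samples (right point) that carry the same number in their titles, joined by a line, for the 3H and the 6H set; the vertical axis starts at 50%. Lines are short in the 6H set, where differences were from -4.58 to -0.0291 percentage points, and reach -12.6 and 12.1 in the 3H set.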

How the data were processed

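Targeted bisulfite sequencing was done on 20 gonad samples. Per the labels' protocols, DNA was extracted with phenol and chloroform, converted with a commercial bisulfite kit and made into libraries by an amplicon protocol. Per the submitters' processing notes, the tools were Bismark, Bowtie2, FastQC 0.11.6 and Trim Galore 0.4.5 and the build was GRCz11. The sources used here give no settings for them. The deposited tables hold counts of methylated and unmethylated reads per position and the percent methylated, per the file headers. The deposited percent values equalled those recomputed from the counts to within 1e-06.

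Trailing tab characters were removed from 1 table. Positions at most 500 bp apart were joined, and clusters with at least 3 positions and at least 3 samples with a call in each group were tested (11 clusters). Calls were pooled per sample. Group means were compared with exact two-sided permutation tests, with intervals by test inversion and Benjamini-Hochberg adjustment over the 11 clusters. The difference between LPS effects was tested by permuting set labels within treatment in values centred by set and is approximate. Both permutation tests and the CpG fits were tested on simulated data. The simulated CpG changes were at positions with more reads, and the simulated clusters spread less than the chromosome 16 cluster. These checks do not give the power of the tests at the 2 clusters. For single CpGs the test was that of edgeR 4.0.16 in R 4.3.3, quasi-likelihood on both counts with 1 intercept per sample, and with limma 3.58.1 on log2 ratios with 0.5 added. The threshold was an adjusted p of 0.05. Positions with at least 10 reads in every group were named with their group values. Positions with fewer reads are given by ranges and counts, except those singled out after their values were seen. The other software was scipy 1.17.1, pandas 2.3.3, numpy 2.4.6, matplotlib 3.10.9 and Python 3.11.15. The clusters and tests were chosen with earlier results of these data known. Sequences were not used here, since no genome of this build was given.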

Additional observations from a re-analysis of the deposited data

How the results depend on the processing

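The permutation results of the 12 cluster comparisons passed the threshold under no alternative. With 1 choice changed, adjusted p lay between 0.344 and 1, and 11 of 115 values turned direction. On chromosome 7 the LPS difference of the 6H set was 0.672 as an unweighted mean over CpGs. The difference between LPS effects there was 2.88 by that mean, 2.97 by medians and up to 1.90 with 1 CpG left out. On chromosome 16 the LPS difference of the 6H set was 3.60 with at least 30 calls per sample and 3.97 by medians. The minimum of 30 calls left out 6H control replicate 1, which had 19 calls. At that minimum the other chromosome 16 comparisons had too few samples to be tested. The difference between controls of the sets was -0.0102 in natural log-odds and down to -0.0707 with 1 CpG left out. With the replicate block, which paired samples of the same title number, chromosome 16 differed by -1.47 in the 3H set, by -2.14 over both sets and by 6.58 between LPS effects. The block dropped 3H control replicate 1, which had no LPS sample of its number with a call. Leaving out 1 sample without any pairing also reached -1.47 in the 3H set. The value between LPS effects rested on numbers 2, 3 and 5 only. The block could make a call only over both sets. Each other comparison had at most 5 pairs, and 5 pairs give an exact permutation p of at least 0.0625. Chromosome 7 reached that value in the 6H set, where LPS was lower in 5 of 5 pairs (adjusted p = 0.344). Over 132 CpGs same-numbered samples, with r from -0.537 to 0.600, deviated together (r over 0.1) in 7 of 10 pairs. A pairing was to be assumed only if all pairs did so, so samples were not treated as pairs, which does not show that they are unpaired. Over both sets the block changed no call. LPS samples correlated best with their own number in 2 of 10 cases. The share of differently numbered samples with r over 0.1 is not given, so 7 of 10 has nothing to be set against.

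With each sample left out in turn no comparison was called, and LPS differences lay on chromosome 7 from -5.67 to 2.68 (3H), from -4.77 to 0.312 (6H) and from -3.93 to 0.249 (both sets). On chromosome 16 they lay from -1.47 to 22.1, from -8.04 to 4.78 and from -2.29 to 9.49. Between controls of the sets they were from -6.60 to 0.508 on chromosome 7 and from -7.70 to 10.7 on chromosome 16, and between LPS effects from -4.86 to 3.49 on chromosome 7. LPS samples differed between sets by -6.94 to -0.317 on chromosome 7 and by -23.0 to -0.715 on chromosome 16, and LPS effects on chromosome 16 by -25.2 to -1.64, with no turn of direction but a wide range of sizes. In pooled calls, an alternative added after seeing the data, LPS minus control over the first 4 positions of chromosome 7 lay from -12.2 to -2.95 (3H) and from -7.58 to 0.157 (6H), and over the last 4 from -2.88 to 5.94 and from -1.37 to 5.60. On chromosome 16 it lay from -23.6 to -12.1 and from -11.6 to 7.14 over the first 4, and from -0.952 to 40.7 and from -16.9 to -4.72 over the last 4. The cause of these turns was not tested. Taking CpGs read in every sample with the cluster, an alternative added after seeing the data, turned no direction. No position of either cluster was left at 10 reads in at least 4 samples of every group, so that alternative gave no value for them. With at least 30 reads per group, limma, the replicate block or a sample left out, no chromosome 7 position was called. Depth on chromosome 16 was at most 5 reads per position and sample.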
